A study of Mus musculus with 26 samples.

Results

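Macrophages that enter the mouse lung from the bone marrow during acute inflammation were compared at 3 days and at 1 day after lipopolysaccharide (LPS). LPS is a component of the outer membrane of Gram-negative bacteria, which macrophages sense through the receptor TLR4. The libraries were chosen by their labels for cell type (BM-derived macrophage) and day, which gave 9 of the 26 libraries of the series: BM day 3 (LPS, 3 days, n = 4) and BM day 1 (LPS, 1 day, n = 5). All 9 came from lungs of mice given LPS by the route written IT in the labels, and no recruited macrophages from lungs without LPS were analysed here. Resident alveolar macrophages (AM) after the same LPS served as a second pair of groups at the same days, AM day 3 (n = 3) and AM day 1 (n = 4), and levels of BM day 7 (n = 3) are given at the end. For these groups the labels used here give no strain, genotype, age, sex or sorting gate (the word Young stands in the names of untreated AM libraries, which were used in the fit and in the plot of library composition), and do not say that libraries of a group came from separate animals, and p-values here therefore cover differences between samples that could be partly technical. Libraries are named by group and replicate, as in BM_day3.1.

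Monocytes that reach an inflamed lung meet bacterial products there and switch on genes under the transcription factor NF-κB, among them interleukin-1β, the inflammasome sensor Nlrp3 and many feedback inhibitors of the pathway itself. As the acute phase passes, such cells are known to enlarge their lysosomes, to take up dying neutrophils and to make apolipoprotein E and complement C1q, which are products of tissue macrophages. In a bulk library, fewer cells of a type and less RNA per cell cannot be told apart.

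The libraries held 11382242 to 22280695 counts in BM day 3 and 13014967 to 20007866 counts in BM day 1, and levels are given as counts scaled to the library's total in the unit CPM. The day is confounded with the prefix of the library names: the BM day 1 libraries carry the prefix 6483, while those of BM day 3, AM day 3 and AM day 1 carry 5341. The labels used here do not say what the prefix stands for. The mRNA of replication histones, which lacks a poly(A) tail, moved with the prefix and together held 46.7 to 113 CPM (BM day 3) against 734 to 2022 CPM (BM day 1). Their range over all libraries outside BM day 1 was 46.7 to 325 CPM. Small noncoding RNA, most of which lacks such a tail too, was summed together with rRNA and mitochondrial tRNA. This sum held 1914 to 3598 CPM in BM day 3 and 4486 to 8195 CPM in BM day 1, without overlap. Over all groups it did not separate by prefix, with 1602 to 8962 CPM in AM day 1. Its single classes are given below. Gene models that still await experimental support (the class TEC of the annotation) held 368 to 572 CPM (BM day 3) against 2588 to 4558 CPM (BM day 1). Protein-coding genes took 97.6 to 98.1% of counts at day 3, against 90.9 to 93.7% at day 1. A single gene without a symbol, ENSMUSG00000118642, picked after its values were seen, held at most 209 CPM at day 3 against 26853 to 57354 CPM at day 1. Prefix and day cannot be told apart for any gene in this comparison.

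**Figure D1:**
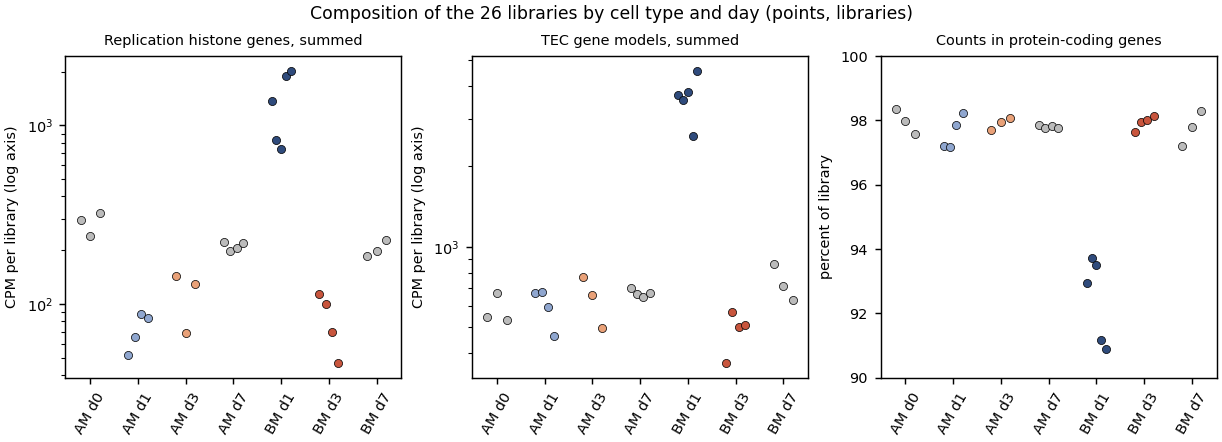
CPM of summed replication histone genes and of TEC gene models (log axes) and the percent of counts in protein-coding genes, 1 point per library, for all 7 groups of cell type (AM, BM) and day (d). The 5 BM day 1 libraries stand apart in all 3 panels, with histone sums of 734 to 2022 CPM against 46.7 to 325 CPM in the other libraries.

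Single libraries also stood apart. BM_day3.1 had 7609 genes with at least 5 counts and BM_day1.3 had 9167, the lowest of their groups (up to 12364 in BM day 3 and 16038 in BM day 1). In BM_day3.1 markers of fibroblasts and endothelium summed to 29404 CPM, and neutrophil markers to 5871 CPM, above the other 8 BM libraries compared. Nearly all of the first sum was Col1a1 (15944 CPM) and Col1a2 (12909 CPM). Col3a1 (354 CPM) and Pdgfra (27.9 CPM) were also highest there, but Dcn, Lum and Cldn5 had 0 counts. Pecam1, Cdh5, Kdr and Vwf were each higher in a BM day 1 library. Transcripts of 4 Y-linked genes summed to 0.176 and 0.0495 CPM in BM_day3.1 and BM_day3.2, to 176 and 171 CPM in BM_day3.3 and BM_day3.4, and to 7.197 to 41.3 CPM in BM day 1. The Y-linked level separated the day 3 libraries into 2 pairs, with every day 1 library between them. The X-linked RNA Xist ordered them differently, since each BM day 1 library (lowest 508 CPM, highest 845 CPM) exceeded every BM day 3 library. BM_day3.1 held 91.1 CPM of Xist, BM_day3.2 277 CPM, BM_day3.3 9.25 CPM and BM_day3.4 0 CPM. Among the AM libraries of both days no Y-linked sum fell below 182 CPM, and Xist never exceeded 20.4 CPM. Beyond a fit with a Y-linked term, the part of sex was not tested. The macrophage transcripts Adgre1, Csf1r, Cd68, Cd14, Itgam and Fcgr1 were present in all 9 libraries, with Csf1r at 1540.5 to 2929 CPM in BM day 3, against 1937 to 2398 CPM in BM day 1. Erythroid and platelet markers had 0 counts in BM day 3 and at most 6.63 CPM in BM day 1, and eosinophil and basophil markers 0 and at most 1.64 CPM.

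Of 17143 genes tested with edgeR's quasi-likelihood test over all 26 libraries, 4432 (25.9%) differed between BM day 3 and BM day 1 at an adjusted p under 0.05. Of these, 1818 were higher at day 3 (10.6% of the genes tested) and 2614 were lower (15.2%), and the median log2 fold change of all tested genes was −0.05. A log2 fold change is given as day 3 minus day 1 with its standard error after ±, and a gene is said to rise or fall when its adjusted p was under 0.05. In a fit to the 9 compared libraries alone 336 genes rose and 781 fell, and 1106 of these calls were also made, in the same direction, with all libraries. The joint fit pools the spread of groups that were unequally tight. A library's median correlation with its own group went down to 0.73 for BM day 3 (highest 0.89) and 0.83 for BM day 1 (highest 0.92). It was 0.97 to 0.99 for untreated AM, AM day 7 and BM day 7. Standard errors and adjusted p from all 26 libraries may thus be too small for the BM comparison, which was not tested. The CPM ranges of the 4 day 3 and 5 day 1 libraries did not overlap for 2136 genes (12.5%).

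The falls were unevenly spread over kinds of gene. Of the 13129 tested protein-coding genes without histone genes 1584 rose (12.1%) and 1510 fell (11.5%), whereas 373 of 724 TEC models (51.5%), 226 of 647 antisense genes (34.9%), 50 of 96 sense-intronic genes (52.1%) and 38 of 52 replication histone genes (73.1%) fell. In AM day 3 against AM day 1, edgeR called 0 histone genes, 1 antisense gene and 3 TEC models higher and none of these 3 classes lower. Among small noncoding RNA, 21 of 37 snRNA genes (56.8%), 27 of 64 snoRNA genes (42.2%), 10 of 13 misc_RNA genes (76.9%) and 12 of 41 miRNA genes (29.3%) fell in BM. In the same order 0, 2, 0 and 3 rose, and none of these genes was called in AM. Within the protein-coding genes the change also followed exon length: the median log2 fold change was 0.44 in the quintile with the shortest exons (69 to 2444 bases in sum) and −0.42 in the quintile with the longest (7556 to 123179 bases). The same quintiles had medians of 0.00 and 0.08 in AM. For this reason the counts of each of the 24 gene lists below are also given from a fit to protein-coding genes with an exon-length offset per library (called the length-adjusted fit), an alternative chosen after seeing the data, in which 1208 genes rose and 1116 fell.

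**Figure D2:**
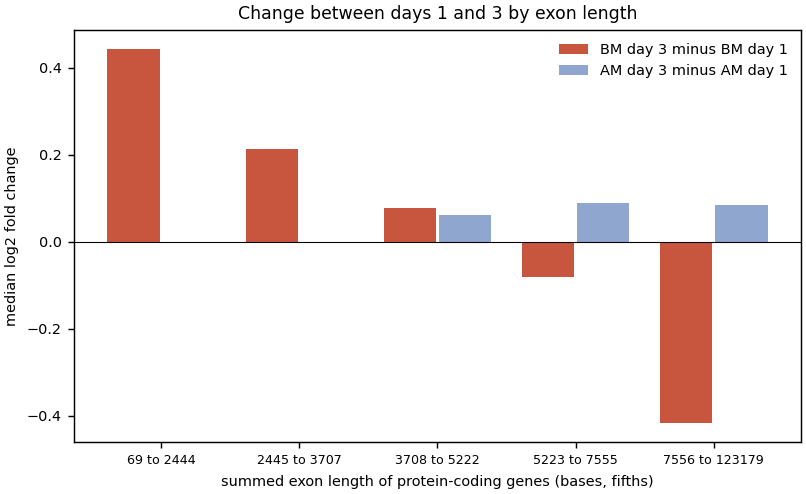
Median log2 fold change, day 3 minus day 1, of protein-coding genes grouped into quintiles by summed exon length (bases), for BM (red) and AM (blue). The BM medians fall with each step from 0.44 to −0.42, while the AM medians lie between 0.00 and 0.09.

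The regulators through which NF-κB signals are first carried and then restrained fell together. Of 20 tested genes of this list 16 fell, none rose and 4 did not pass the test, with a median log2 fold change of −1.49 (all tested genes −0.05). The fall was led by Kdm6b, a histone demethylase that removes methyl groups from lysine 27 of histone H3, Nfkbiz, a nuclear IκB protein that acts as a coactivator, and Rel, the NF-κB subunit c-Rel. Kdm6b (chr11:69398508-69413675 of GRCm38, − strand) was at 160.4, 165, 176 and 118 CPM in BM day 3 libraries, against 1307, 1222, 1734, 1259 and 1376 CPM in BM day 1 libraries. The day 1 libraries were all far above the day 3 libraries, and the log2 fold change was −3.198 ± 0.19 (adjusted p = 2.2e-11). Nfkbiz was at 128, 236, 292 and 128 CPM in BM day 3 and 1509, 1532, 2293, 1239.6 and 1256 CPM in BM day 1. Its groups did not overlap either, with a log2 fold change of −3.04 ± 0.27 (adjusted p = 1.6e-08). Rel was at 39.4, 122, 151 and 61.8 CPM in BM day 3 and 469, 534, 652, 368 and 667 CPM in BM day 1, lowest in BM_day3.1 and again without overlap (−2.56 ± 0.29, adjusted p = 4.7e-07). Cebpb, a transcription factor of the acute phase response, was at 648, 864, 725 and 637 CPM in BM day 3 and 2046, 1696, 2221, 2506 and 2108 CPM in BM day 1 and changed by −1.598 ± 0.14 (adjusted p = 1.4e-08).

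Inhibitors in the same list fell as well. Tnfaip3 (A20), an enzyme that edits ubiquitin chains, had 338 to 525 CPM in BM day 3, against 1010.3 to 2178 CPM in BM day 1 (−1.88 ± 0.20, adjusted p = 1.8e-07). Nfkbia, which holds NF-κB in the cytoplasm, had 427 to 705 CPM in BM day 3, against 1111 to 1575 CPM in BM day 1 (−1.39 ± 0.19, adjusted p = 7.4e-06). Members that did not pass were Tnip1, Tnip3, Irak3 and Irf1, with log2 fold changes from −1.24 to −0.45. The count was 15 in the 9 libraries alone, 17 in the length-adjusted fit, 16 without BM_day3.1 and BM_day1.3, 14 with BM_day3.1 and BM_day3.2 as the only day 3 libraries and 15 with BM_day3.3 and BM_day3.4.

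The promoters of 3 genes that fell are shown because NF-κB binds DNA at sites of the form GGG, any 3 bases and TTCC (GGAA, 3 bases and CCC on the other strand). The sequences are the 250 bases before the transcription start in RefSeq (GRCm38.p6), written 5′ to 3′ on the gene's strand, and these genes were picked after their values were seen. Capitals mark this κB motif, CACGTG and TGANTCA (the AP-1 site), each searched on both strands, with no overlaps between them.
Nfkbia: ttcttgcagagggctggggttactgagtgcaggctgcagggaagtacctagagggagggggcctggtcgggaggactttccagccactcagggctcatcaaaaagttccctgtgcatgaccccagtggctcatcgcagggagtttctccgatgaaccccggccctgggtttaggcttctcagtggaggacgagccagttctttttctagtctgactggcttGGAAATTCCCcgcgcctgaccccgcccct
Tnfaip3: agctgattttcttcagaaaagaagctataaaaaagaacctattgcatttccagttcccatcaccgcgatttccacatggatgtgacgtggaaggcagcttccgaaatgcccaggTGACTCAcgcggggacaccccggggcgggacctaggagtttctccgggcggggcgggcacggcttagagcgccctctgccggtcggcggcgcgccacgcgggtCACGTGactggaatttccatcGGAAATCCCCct
Rel: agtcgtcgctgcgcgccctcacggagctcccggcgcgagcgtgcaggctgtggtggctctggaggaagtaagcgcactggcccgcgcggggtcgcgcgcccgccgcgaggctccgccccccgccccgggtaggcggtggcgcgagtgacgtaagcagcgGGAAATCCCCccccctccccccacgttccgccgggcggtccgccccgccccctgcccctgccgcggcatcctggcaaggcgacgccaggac
These windows lie at chr12:55492648-55492897, − strand (Nfkbia), chr10:19015411-19015660, − strand (Tnfaip3) and chr11:23770970-23771219, − strand (Rel). The κB motif starts 29 bases before the start of Nfkbia, 12 before that of Tnfaip3 and 91 before that of Rel. The window of Tnfaip3 also holds 1 CACGTG and 1 TGANTCA. Among the 20 genes of the list 15 had a promoter in the table and 6 of these held the κB motif (40%): Nfkbia, Nfkbie, Nfkb2, Rel, Tnfaip3 and Tnip1. Of these 6, Tnip1 alone did not pass the test. The motif was found in 540 of 10357 promoters of protein-coding tested genes (5.21%). TGANTCA, in contrast, was in none of 19 promoters of the immediate early list described below, and in 4.35% of those of protein-coding tested genes.

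**Figure D3:**
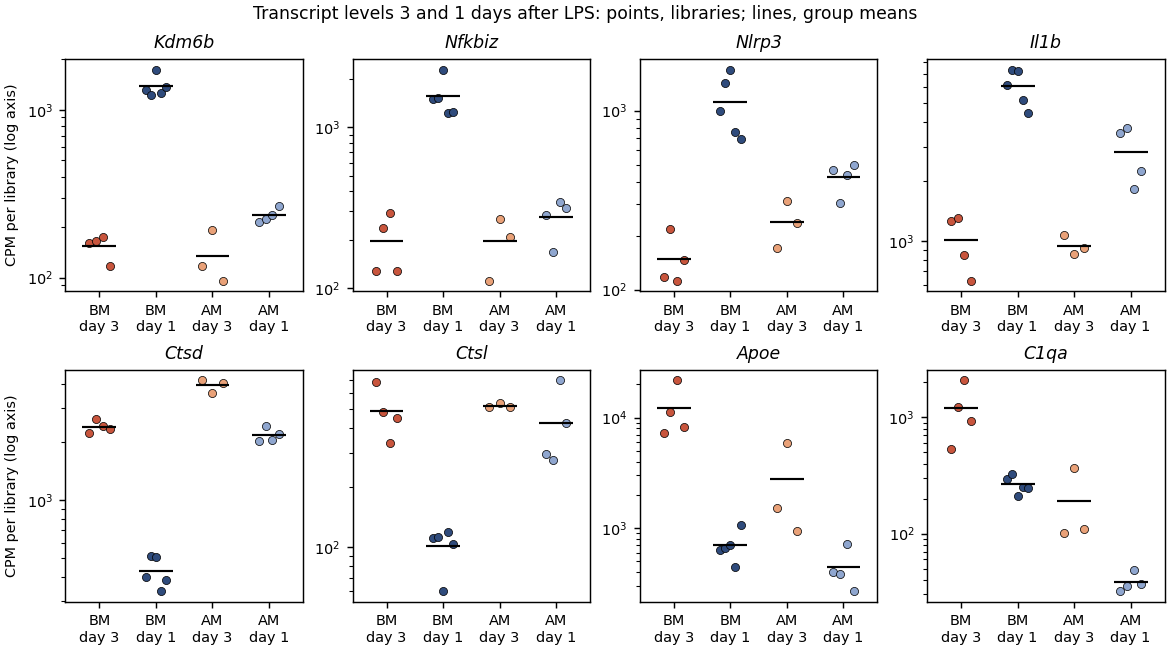
CPM (log axis) of 8 genes, 1 point per library with the group mean as a line, in BM day 3 (n = 4), BM day 1 (n = 5), AM day 3 (n = 3) and AM day 1 (n = 4). Kdm6b, Nfkbiz, Nlrp3 and Il1b lie lower in BM day 3 than in BM day 1, and Ctsd, Ctsl, Apoe and C1qa higher, in each case without overlap of the BM groups.

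Among genes of the inflammasome and the interleukin-1 family the sensor Nlrp3 and both interleukin-1 cytokines fell, while the adaptor Pycard and the protease Casp1 rose. Of 18 tested members 5 fell, 4 rose and 9 did not pass (median −0.12), while 15.2% of all tested genes fell and 10.6% rose. Nlrp3, the sensor protein (chr11:59541568-59566956, + strand), was at 118, 218, 112 and 146 CPM in BM day 3 libraries, against 989, 1423, 1695, 758 and 692 CPM in BM day 1 libraries. All day 1 libraries exceeded all day 3 libraries (−2.95 ± 0.26, adjusted p = 1.4e-08). Il1b, which encodes interleukin-1β, was at 1265, 1299, 849.6 and 629 CPM in BM day 3 and 6155, 7346, 7210.0, 5175 and 4429 CPM in BM day 1 and changed by −2.64 ± 0.24 (adjusted p = 1.8e-08), with no overlap. Il1a (−1.92 ± 0.34), the receptor antagonist Il1rn (−1.34 ± 0.30) and the receptor's accessory chain Il1rap (−1.24 ± 0.46) fell too. Pycard, which links the sensor to the protease, had 58.01 to 143 CPM in BM day 3, against 0 to 36.4 CPM in BM day 1 (2.01 ± 0.66, adjusted p = 0.03). Casp1, the protease that cuts pro-interleukin-1β, rose with overlapping groups (0.82 ± 0.23, adjusted p = 0.014). Il1r1, the signalling receptor, was at 57.8, 15.6, 16.2 and 21.4 CPM in BM day 3 and 0, 1.45, 0, 0 and 0 CPM in BM day 1 (6.33 ± 1.17, adjusted p = 0.00032), highest in BM_day3.1. The 4 rises, which include the DNA sensor Aim2, were not called in the 9 libraries alone (0 rises, 4 falls), and the length-adjusted fit called 1 rise and 4 falls.

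Of 26 cytokines and chemokines 7 fell, 3 rose and 16 did not pass (median −0.93, with 2 higher and 9 lower in the length-adjusted fit). The share that rose is close to the 10.6% of all tested genes, while 15.2% of all tested genes fell. Ptgs2, the inducible cyclooxygenase that makes prostaglandins, was at 198, 441, 158 and 107 CPM in BM day 3 libraries, against 1707, 2598, 2169, 577 and 659.6 CPM in BM day 1 libraries. Its day 1 levels spread widely between libraries, yet the groups stayed apart (−2.83 ± 0.51, adjusted p = 0.00039). Tnf, a central cytokine of the acute response, was at 68.8, 170.5, 96.4 and 75.3 CPM in BM day 3 and 268, 361, 619.6, 156 and 185 CPM in BM day 1. It fell by the test (−1.66 ± 0.35, adjusted p = 0.0014), although BM_day3.2 lay above BM_day1.4. Lif, of the interleukin-6 family, was at 0, 39.96, 25.5 and 3.88 CPM in BM day 3 and 119, 132, 202, 65.6 and 96.5 CPM in BM day 1 (−2.85 ± 0.83, adjusted p = 0.017). The 9 libraries alone did not call it (adjusted p = 0.112). Other falls were those of Ccl4, Osm, Cxcl1 and Cxcl2, the last of which attracts neutrophils (−1.28 ± 0.35, adjusted p = 0.013, groups overlapping).

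The rises were Saa3, Ccl5 and Ccl6. Saa3, an acute-phase serum amyloid protein made by macrophages, was at 5331, 5063, 3297 and 6583 CPM in BM day 3 libraries, against 376, 142, 144, 1211 and 363 CPM in BM day 1 libraries. All day 3 libraries were above all day 1 libraries, among which BM_day1.4 was the highest (3.46 ± 0.71, adjusted p = 0.0016). Ccl5, which attracts T cells and monocytes, had 305 to 525 CPM in BM day 3, against 16.7 to 137 CPM in BM day 1 (2.299 ± 0.53, adjusted p = 0.0041). The summed level of the list was 6955 to 9862 CPM in BM day 3, against 3325 to 8587 CPM in BM day 1, so the ranges overlapped.

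Immediate early genes and AP-1 subunits, which respond within minutes to stimulation, fell or did not pass: 12 of 23 fell, none rose and 11 did not pass (median −1.17; 0 higher and 16 lower in the length-adjusted fit). Nr4a1, an orphan nuclear receptor induced by stimulation, was at 294, 557, 353 and 274 CPM in BM day 3 libraries, against 1547, 1191, 2426, 1754 and 2229 CPM in BM day 1 libraries. The groups were well apart (−2.34 ± 0.21, adjusted p = 1.5e-08). Fosl2, an AP-1 subunit, was at 252, 434, 325 and 156 CPM in BM day 3 and 1253, 1251, 1509, 983 and 1213 CPM in BM day 1, also without overlap (−2.13 ± 0.22, adjusted p = 1.2e-07). Nr4a3, a relative of Nr4a1, changed by −2.25 ± 0.40 (adjusted p = 0.00029), and Junb by −0.92 ± 0.19 (adjusted p = 0.00097), both without overlap. Fos, Jun and Egr1, often induced when tissue is digested, did not pass, at −0.00 ± 0.26, −0.39 ± 0.24 and −0.46 ± 0.36. Of 13 heat shock genes, which respond to handling as well, 1 rose and 2 fell, shares close to those of all tested genes (10.6% higher, 15.2% lower), with a median of −0.21 and 1 higher and 2 lower in the length-adjusted fit. Those called were the co-chaperone Bag3 (1.39 ± 0.29, adjusted p = 0.00097), the endoplasmic reticulum chaperone Hspa5 (−0.69 ± 0.17, adjusted p = 0.0042) and Hsph1 (−1.96 ± 0.71, adjusted p = 0.047). The level of Hsph1 in BM_day3.1 was 0.264 CPM against 69.9 to 113 CPM in the rest of its group. Hsp90ab1, the most abundant of the list, was at 0.04 ± 0.15 (adjusted p = 0.92).

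Genes that end inflammatory signalling fell alongside: 7 of 14 genes for cytokine mRNA decay and MAP kinase phosphatases fell and none rose (median −1.22; 0 higher and 6 lower in the length-adjusted fit). Dusp16, a phosphatase of the kinases JNK and p38, was at 81.1, 97.4, 119 and 125 CPM in BM day 3 libraries, against 727, 580.4, 653, 737 and 769 CPM in BM day 1 libraries. The spread within each group was small beside the difference (−2.75 ± 0.17, adjusted p = 2.2e-11). Dusp2 was at 46.8, 68.3, 107 and 61.9 CPM in BM day 3 and 457, 379, 476, 735 and 575 CPM in BM day 1 (−2.92 ± 0.49, adjusted p = 0.00015). Dusp5 changed by −2.099 ± 0.26 (adjusted p = 2.1e-06) and Dusp1 by −1.63 ± 0.18 (adjusted p = 2.3e-07), again with no overlap. Zfp36, which binds AU-rich elements and speeds the decay of Tnf mRNA, fell less (−0.56 ± 0.19, adjusted p = 0.035), and the endonuclease Zc3h12a fell as well (−1.77 ± 0.24, adjusted p = 5.1e-06).

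Enzymes that write or erase marks on histones and DNA were lower where they were called: 16 of 43 fell, none rose and 27 did not pass (median −0.65). Kmt2d, a methyltransferase for lysine 4 of histone H3 at enhancers, was at 155, 98.6, 179 and 105 CPM in BM day 3 libraries, against 720.1, 709.7, 820.1, 719.7 and 919 CPM in BM day 1 libraries. All day 3 libraries were below all day 1 libraries (−2.58 ± 0.27, adjusted p = 1.3e-07). Tet2, which oxidises methylated cytosine, was at 35.8, 54.7, 51.97 and 61.4 CPM in BM day 3 and 295, 238, 194, 194 and 272 CPM in BM day 1 (−2.27 ± 0.24, adjusted p = 2.3e-07). Setd1b, another histone H3 lysine 4 methyltransferase, was at 0.0879, 26.4, 28.9 and 35.8 CPM in BM day 3 and 112, 122, 87.7, 95.1 and 116 CPM in BM day 1 (−2.26 ± 0.61, adjusted p = 0.011). BM_day3.1 was far below its group. Kdm5c, an X-linked demethylase, was at 136, 191, 117 and 121 CPM in BM day 3 and changed by −1.47 ± 0.23 (adjusted p = 3.5e-05). It stayed called when the fit held a term for Y-linked RNA, a term that does not follow Xist RNA. The part of sex in this change was not tested. The genes of this list have long transcripts, with a median exon length of 8780 bases, which places them where falls were frequent among all genes. In the length-adjusted fit 9 fell and 1 rose (median −0.27), and in the 9 libraries alone 11 fell.

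In these lists of falling genes the direction without calls stayed sparse at an unadjusted p under 0.05 as well: 0 early inflammatory regulators, 0 immediate early genes, 0 decay and phosphatase genes and 1 histone and DNA modifying enzyme were higher. DESeq2 called 0, 0, 0 and 1 of them higher, and in the lists of lysosomal, ribosomal and oxidative phosphorylation genes described next neither edgeR at an unadjusted p under 0.05 nor DESeq2 found a gene lower.

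Lysosomal genes moved the other way. Of 38 tested hydrolases and their activators 22 rose, none fell and 16 did not pass (median 0.93, all tested genes −0.05); of 28 lysosomal membrane proteins, proton pump subunits and regulators 18 rose and none fell (median 0.58). Ctsd, an aspartic protease of the lysosome (chr7:142375911-142388038, − strand), was at 2222, 2639.9, 2415 and 2353 CPM in BM day 3 libraries, against 399, 513, 508, 336 and 385 CPM in BM day 1 libraries. Both groups were tight and did not overlap (2.44 ± 0.21, adjusted p = 1.4e-08). Ctsl, a cysteine protease, was at 681, 482, 337 and 447 CPM in BM day 3 and 111, 112, 59.7, 118 and 103 CPM in BM day 1 and changed by 2.21 ± 0.24 (adjusted p = 3e-07), with BM_day1.3 lowest. Lyz2, lysozyme, was at 6188, 16360.5, 16742 and 12253 CPM in BM day 3 and 4253, 4551, 4141, 5097 and 3662 CPM in BM day 1 (1.52 ± 0.22, adjusted p = 1.8e-05), lowest of its group in BM_day3.1. Its reads may be shared with its close copy Lyz1.

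Other members of the hydrolase list that rose were Hexa (1.62 ± 0.23), Npc2, which carries cholesterol out of the lysosome (1.57 ± 0.19), Ctss (1.31 ± 0.17), Psap (0.75 ± 0.16) and Lipa, the acid lipase (0.79 ± 0.18). Ctsf was called too, but it had 0 counts in every day 1 library and at most 1.77 CPM at day 3, so no fold is given. Ctsz and Ctsc did not pass, with values of 0.45 ± 0.17 and 0.45 ± 0.21. Summed over the list, hydrolase transcripts amounted to 33825 to 55520.0 CPM in BM day 3, against 19392 to 24562 CPM in BM day 1.

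On the lysosomal membrane, Cd63, a tetraspanin of late endosomes, was at 425, 310.4, 471 and 258 CPM in BM day 3 libraries, against 62.5, 86.02, 70.6, 32.9 and 25.3 CPM in BM day 1 libraries. All day 3 libraries were higher (2.66 ± 0.29, adjusted p = 2.3e-07). Cd68, a macrophage glycoprotein, was at 421, 633, 601 and 674 CPM in BM day 3 and 146, 215, 58.3, 214 and 189.9 CPM in BM day 1 (1.76 ± 0.25, adjusted p = 1e-05). Lamp1, a main structural protein of the membrane, was at 1055, 1313, 1608 and 1320.3 CPM in BM day 3 and 638, 648, 532, 669 and 600.3 CPM in BM day 1 (1.05 ± 0.15, adjusted p = 1.1e-05). Atp6v0d2, a proton pump subunit found in few cell types, was at 85.2, 123, 61.5 and 27.01 CPM in BM day 3 and 11.04, 17.2, 14.8, 7.39 and 21.96 CPM in BM day 1 (2.303 ± 0.30, adjusted p = 5.5e-06). The transcription factors that drive lysosomal genes were not called: Tfeb was at −0.16 ± 0.20, Tfe3 at 0.20 ± 0.21 and Mitf at −0.38 ± 0.66. In the 9 libraries alone 13 hydrolases and 5 membrane genes rose and none fell; the length-adjusted fit called 20 hydrolases higher, 1 lower and 17 membrane genes higher. Without BM_day3.1 and BM_day1.3 the counts of rises were 29 and 18.

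Promoters of 2 genes that rose are shown because TFEB and its relatives bind the palindrome CACGTG in lysosomal promoters. They are again the 250 bases before the start in RefSeq (GRCm38.p6) with CACGTG in capitals, and were picked after their values were seen.
Ctsd: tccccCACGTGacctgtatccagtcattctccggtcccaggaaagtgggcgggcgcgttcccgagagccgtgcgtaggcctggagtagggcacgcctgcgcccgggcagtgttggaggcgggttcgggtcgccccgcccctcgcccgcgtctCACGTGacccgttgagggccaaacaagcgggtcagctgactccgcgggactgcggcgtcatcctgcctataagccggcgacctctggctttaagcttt
Lamp1: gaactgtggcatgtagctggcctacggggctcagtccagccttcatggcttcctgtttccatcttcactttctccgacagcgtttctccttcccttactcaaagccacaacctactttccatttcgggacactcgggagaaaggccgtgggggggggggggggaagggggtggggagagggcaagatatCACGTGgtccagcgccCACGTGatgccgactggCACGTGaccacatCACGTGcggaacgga
The windows lie at chr7:142387828-142388077, − strand (Ctsd) and chr8:13158911-13159160, + strand (Lamp1). Part of the Ctsd window lies inside the gene as GENCODE places it (chr7:142375911-142388038), so the RefSeq and GENCODE starts differ. CACGTG starts 245 and 98 bases before the RefSeq start of Ctsd, the second inside the GENCODE gene, and 61, 45, 28 and 15 bases before that of Lamp1. It was in 8 of 30 hydrolase promoters (26.7%) and 4 of 22 promoters of the membrane list (18.2%), against 845 of 10357 promoters of protein-coding tested genes (8.16%). The immediate early list, of which no member rose, had it in 4 of 19 (21.1%), the early inflammatory regulators in 1 of 15 (6.67%) and ribosomal protein genes in 2 of 27 (7.41%). The 8 hydrolases were Ctsd, Ctsf, Ctsl and Gaa, which rose, and Gla, Glb1, Naglu and Arsa, which did not pass the test. The 4 membrane genes, Lamp1, Mcoln1, Atp6v0b and Atp6v1a, all rose.

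**Figure D4:**
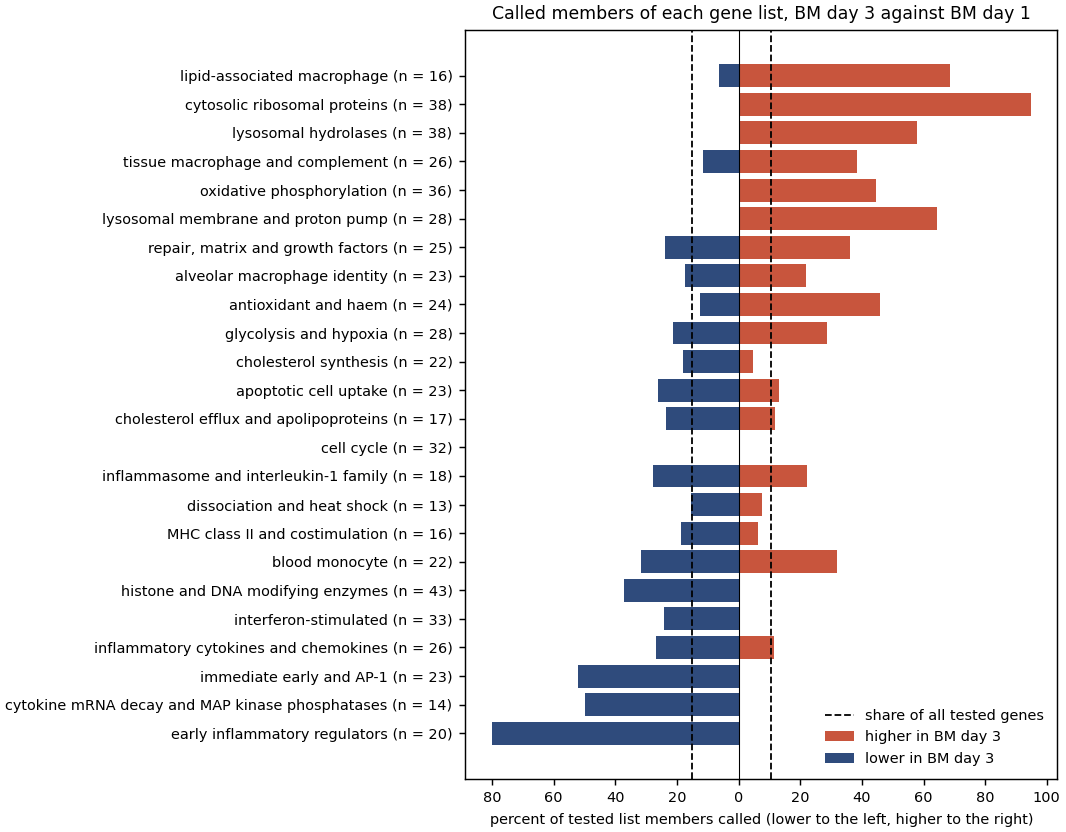
Percent of the tested members of 24 gene lists called higher (red, to the right) or lower (blue, to the left) in BM day 3 than in BM day 1, ordered by median log2 fold change, with dashed lines at the shares of all tested genes (10.6% higher, 15.2% lower). The early inflammatory regulators stand lowest (16 of 20 lower), and ribosomal proteins and lysosomal hydrolases reach 36 of 38 and 22 of 38 higher.

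Apolipoprotein E, which carries lipid out of macrophages, rose. Apoe (chr7:19696109-19699188, − strand) was at 7265, 11193, 21759 and 8128 CPM in BM day 3 libraries, against 631, 661, 697, 441 and 1073 CPM in BM day 1 libraries. The day 3 levels varied, with BM_day3.3 highest, and all lay above day 1 (4.06 ± 0.49, adjusted p = 4.8e-06). In the list for cholesterol efflux and lipoproteins 2 of 17 genes rose, Apoe and Lpl, and 4 fell (median −0.01; 3 higher and 3 lower in the length-adjusted fit). The share that rose is close to the 10.6% of all tested genes. Nr1h3, the sterol sensor LXRα that drives Apoe and Abca1, was at 65.7, 79.9, 92.5 and 68.8 CPM in BM day 3 and 225, 136, 99.3, 545 and 302 CPM in BM day 1 (−1.81 ± 0.32, adjusted p = 0.00023). Abca1, the efflux pump, did not pass at 0.70 ± 0.27. The endocytic receptor Lrp1 fell (−1.39 ± 0.25, adjusted p = 0.00025), and it was not called in the length-adjusted fit (−0.60, adjusted p = 0.114). Of 22 genes of cholesterol synthesis 4 fell and 1 rose (median 0.01; 0 higher and 4 lower in the length-adjusted fit), against 15.2% lower and 10.6% higher among all tested genes. Srebf2, the master regulator (−1.39 ± 0.18, adjusted p = 3.4e-06), was among the falls. Mvd was at 0.51 ± 0.24 (adjusted p = 0.11).

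Genes of lipid-associated macrophages rose as a group: 11 of 16 rose and 1 fell (median 1.23). Trem2, a lipid receptor, was at 394, 264, 299 and 211 CPM in BM day 3 libraries, against 0, 12.6, 65.2, 8.84 and 6.98 CPM in BM day 1 libraries. Every day 3 library was above every day 1 library, and among the day 1 libraries BM_day1.3 was highest (3.96 ± 0.78, adjusted p = 0.0011). Gpnmb, a glycoprotein of phagosomes and lysosomes, was at 1119, 539, 448 and 403 CPM in BM day 3 and 83.9, 88.9, 41.9, 20.4 and 39.3 CPM in BM day 1 (3.44 ± 0.36, adjusted p = 3.5e-07). Cstb, a cathepsin inhibitor, was at 440.0, 525, 406 and 522 CPM in BM day 3 and 81.3, 102, 124, 47.4 and 47.2 CPM in BM day 1 (2.52 ± 0.24, adjusted p = 4.2e-08). Lgals3 (1.33 ± 0.18), Fabp5 (1.21 ± 0.38) and Spp1 (1.84 ± 0.65) rose, and the integrin Itgax fell (−0.996 ± 0.26). Tyrobp, the signalling adaptor of Trem2, changed by 0.81 ± 0.17 (adjusted p = 0.0015), and by 0.08 (adjusted p = 0.784) in the length-adjusted fit. That fit called 8 members higher, and the 9 libraries alone called 6 higher.

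Markers of tissue macrophages and complement genes were mostly higher where called (10 of 26 rose, 3 fell, median 0.85; 6 higher and 3 lower in the length-adjusted fit). C1qa, a chain of complement C1q, was at 529.9, 1236, 2089 and 938 CPM in BM day 3 libraries, against 296, 327, 210.4, 251 and 247 CPM in BM day 1 libraries. All day 3 libraries were above day 1, with BM_day3.1 nearest (2.12 ± 0.40, adjusted p = 0.00054). C1qc followed, at 2.102 ± 0.49 (adjusted p = 0.004), and C1qb at 1.45 ± 0.42 (adjusted p = 0.016). The call for C1qb ended in several alternatives. Among them were the fit without BM_day3.3 (1.06, adjusted p = 0.0743) and the length-adjusted fit (0.89, adjusted p = 0.149). Another had BM_day3.1 and BM_day3.2 as the only day 3 libraries (1.05, adjusted p = 0.14). Ms4a7, a membrane protein of tissue macrophages, was at 66.1, 150.5, 453 and 143 CPM in BM day 3 and 13.9, 26.6, 0, 5.66 and 22.03 CPM in BM day 1 (3.81 ± 0.99, adjusted p = 0.0097). The receptor Mertk, which binds dying cells, rose without overlap (1.06 ± 0.25, adjusted p = 0.0041). Cd14, the LPS co-receptor, had 798 to 1179 CPM in BM day 3, against 1443 to 2880.4 CPM in BM day 1 (−1.25 ± 0.19, adjusted p = 2.7e-05). With BM_day3.1 and BM_day3.2 as the only day 3 libraries 4 members rose, and with BM_day3.3 and BM_day3.4 8; the replicates 1 and 2 are those with little Y-linked RNA.

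Of 23 genes for the uptake of dying cells 6 fell and 3 rose (median 0.00, with 4 higher and 4 lower in the length-adjusted fit). The share that rose is close to the 10.6% of all tested genes, while 15.2% of all tested genes fell. Thbs1, a bridging protein that also activates TGF-β, was at 1126, 137, 120.4 and 94.2 CPM in BM day 3 libraries, against 3997, 3755, 5101, 3671 and 3995 CPM in BM day 1 libraries. The fall was large (−3.54 ± 0.90, adjusted p = 0.0082), and BM_day3.1 was far above the other day 3 libraries. Anxa1, a mediator that dampens neutrophil entry, was at 446, 316, 167 and 309.5 CPM in BM day 3 and 108, 116, 99.1, 78.3 and 96.7 CPM in BM day 1 (1.58 ± 0.19, adjusted p = 1.2e-06). The scavenger receptor Stab1 rose (1.197 ± 0.42), while Axl, Mfge8 and Gas6 did not pass.

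Genes of blood monocytes split, with 7 of 22 higher and 7 lower (median −0.52; 6 higher and 6 lower in the length-adjusted fit). Plac8, high in monocytes that have just left the marrow, was at 111, 76.3, 36.1 and 211 CPM in BM day 3 libraries, against 625, 661, 410.1, 740.2 and 603 CPM in BM day 1 libraries. It fell by the test, without overlap (−2.53 ± 0.53, adjusted p = 0.0016). Ly6c2, the surface marker of inflammatory monocytes, was at 1114, 629, 847 and 1679 CPM in BM day 3 and 337, 382, 378, 123 and 108 CPM in BM day 1 (1.96 ± 0.45, adjusted p = 0.0037), with reads that may be shared with Ly6c1. Ccr2, the receptor that calls these cells out of the marrow, was at 116, 248, 353 and 358 CPM in BM day 3 and 345, 403, 314, 141 and 224 CPM in BM day 1, and the groups overlapped (−0.14 ± 0.50, adjusted p = 0.91). Hp, haptoglobin, was at 2186, 968, 791 and 1480.2 CPM in BM day 3 and 232, 211, 284, 292 and 127 CPM in BM day 1 (2.52 ± 0.29, adjusted p = 7.3e-07). Itgam, the integrin CD11b, had 420.4 to 979 CPM in BM day 3, against 119 to 299 CPM in BM day 1 (1.77 ± 0.35, adjusted p = 0.0008). Falls included Ace, Itgal, Spn and Vcan, at −2.18 ± 0.46, −1.91 ± 0.24, −1.72 ± 0.44 and −1.47 ± 0.48.

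Of 23 genes that identify alveolar macrophages 5 rose and 4 fell (median 0.35; 5 higher and 4 lower in the length-adjusted fit), and the share that fell is close to the 15.2% of all tested genes. Chil3, a chitinase-like protein abundant in resident cells, was at 3847, 2735, 1189 and 2359 CPM in BM day 3 libraries, against 458, 452, 791, 426 and 518 CPM in BM day 1 libraries. The groups did not overlap (2.22 ± 0.35, adjusted p = 8.1e-05), and AM day 3 stood at 17323 ± 1895 CPM (SD, n = 3); reads may be shared with Chil4. Lpl, lipoprotein lipase, was at 570.5, 937, 561 and 382 CPM in BM day 3 and 216, 241, 179, 286 and 265 CPM in BM day 1 (1.31 ± 0.26, adjusted p = 0.00065). Pparg, the nuclear receptor that specifies these cells, fell (−0.97 ± 0.31, adjusted p = 0.024), and the surface lectin Siglecf did not pass (0.25 ± 0.50).

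Interferon-stimulated genes fell where they were called, 8 of 33, with 25 not called and a median of −0.78 (in AM −0.84). Among all tested genes 15.2% fell. The length-adjusted fit called 0 members higher and 9 lower. Oas3, an antiviral enzyme that makes oligoadenylates, was at 147, 57.9, 128 and 117 CPM in BM day 3 libraries, against 284, 368, 250.3, 224 and 266 CPM in BM day 1 libraries. The groups did not overlap (−1.37 ± 0.32, adjusted p = 0.0034), nor did they for Irf7, a transcription factor of the interferon response (−1.17 ± 0.28, adjusted p = 0.0046) and Ddx58, the RNA sensor RIG-I (−0.93 ± 0.27, adjusted p = 0.015). Gbp2 was at 487, 475, 545 and 1018 CPM in BM day 3 and 762, 1173, 1234, 179 and 238 CPM in BM day 1, with overlap (−0.23 ± 0.45, adjusted p = 0.79). The count was 4 in the 9 libraries alone, and 2 with BM_day3.3 and BM_day3.4 as the only day 3 libraries against 9 with the other 2. Of 16 genes of MHC class II and costimulation 3 fell, namely Cd80 (−1.76 ± 0.28, adjusted p = 5.6e-05), Cd86 (−1.09 ± 0.37) and Cd274, the ligand PD-L1 (−1.02 ± 0.21), and 1 rose, H2-Oa, which had 0 counts in all day 1 libraries. The list had 1 higher and 3 lower in the length-adjusted fit, and its share of falls was near the 15.2% of all tested genes. Cd74, the invariant chain, was at 0.44 ± 0.58 (adjusted p = 0.65) and overlapped.

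Genes of the protein-making machinery rose together. Of 38 ribosomal protein genes 36 rose and none fell (median 0.98), with Rpl19 at 661, 579, 571 and 556 CPM in BM day 3 libraries, against 162, 160.0, 92.3, 161 and 131 CPM in BM day 1 libraries. Its groups did not overlap (2.01 ± 0.17, adjusted p = 1.4e-08). Rpl27 changed by 2.03 ± 0.22 (adjusted p = 2.2e-07), Rps13 by 2.22 ± 0.66 (adjusted p = 0.02) and Rplp1 by 1.03 ± 0.17 (adjusted p = 6.9e-05). Rps13 had 0.154 CPM in BM_day1.3 against 66.04 to 126 CPM in the rest of its group. These genes have a median exon length of 1918 bases, and many near-identical pseudogenes that could share their reads. In the length-adjusted fit 21 rose (median 0.50), Rplp1 not among them (0.25, adjusted p = 0.27), and in the 9 libraries alone 21.

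Nuclear genes of oxidative phosphorylation rose in 16 of 36 cases and none fell (median 0.65). Cox5b, a subunit of cytochrome c oxidase, was at 330.1, 126, 83.3 and 141 CPM in BM day 3 libraries, against 40.9, 48.03, 21.1, 50.05 and 36.5 CPM in BM day 1 libraries. The groups were apart (2.04 ± 0.29, adjusted p = 1.4e-05), as for Atp5c1 of the ATP synthase (1.89 ± 0.33, adjusted p = 0.0002). Ndufa1 of complex I changed by 2.05 ± 0.71 (adjusted p = 0.037), while Atp5a1 did not pass (0.30 ± 0.11, adjusted p = 0.056) but was called in 5 alternatives (adjusted p = 0.0187 to 0.049). The count of rises was 10 in the length-adjusted fit and 5 in the 9 libraries alone. Ndufa1 was called in neither, at 1.32 (adjusted p = 0.165) and 1.95 (adjusted p = 0.435), and its call ended in other alternatives too.

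Glycolysis and hypoxia genes split (8 of 28 higher, 6 lower, median 0.13; 6 higher and 4 lower in the length-adjusted fit). Among all tested genes 10.6% rose and 15.2% fell. Aldoa, aldolase, was at 1844, 1682, 1659 and 2159 CPM in BM day 3 libraries, against 939, 1005, 841, 823 and 599.6 CPM in BM day 1 libraries. Its groups stood apart (1.08 ± 0.15, adjusted p = 7.4e-06). Further rises were those of Ldha (0.68 ± 0.17), Pkm (0.93 ± 0.18), Pgam1 (1.26 ± 0.29, adjusted p = 0.0026) and Pdk1 (1.88 ± 0.70, adjusted p = 0.048), the kinase that shuts pyruvate out of mitochondria. The glucose carrier Slc2a1 (−1.01 ± 0.25), Hk2 (−0.76 ± 0.27) and Pfkfb3 (−1.14 ± 0.28), genes of glucose entry and the first steps, fell. Gapdh was at 27.4, 25.5, 22.7 and 59.7 CPM in BM day 3 and 97.2, 123, 126, 73.4 and 108 CPM in BM day 1 (−1.68 ± 0.35, adjusted p = 0.0011). Gapdh, Aldoa and Pgam1 have near-identical pseudogenes that can share their reads, so these values are uncertain. The call for Pdk1 ended in 16 alternatives (adjusted p up to 0.382), and the one for Pgam1 in the 9 libraries alone (0.0602).

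Antioxidant and haem genes rose in 11 of 24 cases and fell in 3 (median 0.29). Fth1, the heavy chain of ferritin, was at 14711, 16787, 12328 and 20375 CPM in BM day 3 libraries, against 5027, 6583, 5752, 3094 and 2899 CPM in BM day 1 libraries. All day 3 libraries were higher (1.73 ± 0.20, adjusted p = 6.8e-07), with the reservation that Fth1 has near-identical pseudogenes. Prdx1, a peroxidase, was at 622, 616, 662 and 613 CPM in BM day 3 and 205, 214, 206, 177 and 150.4 CPM in BM day 1 (1.67 ± 0.15, adjusted p = 1.4e-08), the day 3 libraries lying close together. Gclm, of glutathione synthesis, was at 1.59 ± 0.31 (adjusted p = 0.00056) and Hmox1, which degrades haem, at 1.08 ± 0.29. Nfe2l2, the regulator NRF2, fell (−0.86 ± 0.29), and so did Txnrd1 (−1.198 ± 0.20) and Srxn1 (−1.11 ± 0.39). Known targets of NRF2 thus went both ways, since Fth1, Prdx1, Gclm and Hmox1 are targets too. The length-adjusted fit called 5 rises and 4 falls, and the 9 libraries alone 5 and 1.

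Among 25 genes of repair, matrix and growth factors 9 rose and 6 fell (median 0.54; 7 higher and 6 lower in the length-adjusted fit). Arg1, arginase, was at 1693, 485, 255 and 1631 CPM in BM day 3 libraries, against 57.3, 63.5, 33.3, 75.7 and 39.8 CPM in BM day 1 libraries. The day 3 libraries ranged widely, with BM_day3.1 and BM_day3.4 highest, and all lay above day 1 (4.18 ± 0.92, adjusted p = 0.0028). Tgfbi, a matrix protein, was at 5846, 4606, 4619 and 5848 CPM in BM day 3 and 2958, 3669, 2400.0, 1921 and 2124 CPM in BM day 1 (0.94 ± 0.17, adjusted p = 0.00021). Areg, a growth factor for epithelium, was at 0, 2.03, 0 and 9.21 CPM in BM day 3 and 62.2, 30.2, 24.7, 53.5 and 19.8 CPM in BM day 1 (−3.77 ± 0.92, adjusted p = 0.0054). Its relative Ereg fell too (−3.24 ± 0.93, adjusted p = 0.017). Sparc had 9.43 to 3901 CPM in BM day 3, against 4.58 to 23.2 CPM in BM day 1 (6.16 ± 1.38), the highest value being that of BM_day3.1, the library with the most Col1a1 and Col1a2. Without it and BM_day1.3 6 members rose and 6 fell (median 0.06).

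None of 32 cell cycle genes rose or fell by edgeR's test (median −0.08); at an unadjusted p under 0.05 2 were higher and 1 lower, DESeq2 called 2 higher and 1 lower, and the length-adjusted fit none. Mki67, a marker of proliferating cells, was at 70.02, 117, 126 and 128 CPM in BM day 3 libraries, against 163, 117, 137, 128 and 169 CPM in BM day 1 libraries. BM_day3.1 was lowest and the groups overlapped (−0.41 ± 0.25, adjusted p = 0.25), as they did for Pcna, the sliding clamp of DNA replication (0.11 ± 0.22, adjusted p = 0.79). Replication histone genes, whose mRNA is made in S phase, fell as a class as given above.

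The 6 largest falls among called genes whose BM groups did not overlap, leaving out gene models, pseudogenes and histone genes, had 0 counts in every day 3 library, and a bound is given from 3 counts over the whole group. The bound covers counting error only, not the loss of a transcript from a library. Such loss can occur: Setd1b had 0.0879 CPM in BM_day3.1, against 26.4 to 35.8 CPM in the rest of its group. The true folds may therefore be smaller than these bounds. F3, tissue factor, which starts coagulation, had 0 counts in all 4 BM day 3 libraries, against 65.8, 54.8, 107, 11.6 and 14.2 CPM in BM day 1 libraries. By counting error alone it was at least 1217-fold lower in BM day 3 (adjusted p = 2e-06), and no more abundant gene overlaps it at chr3:121723537-121735048. Fam196b, Astl, Megf11, Epha1 and Unc5a were at least 777-, 728-, 484-, 402- and 369-fold lower by the same floor, again by counting error alone. Of these 5, Fam196b, Epha1 and Unc5a overlap a more abundant gene on the opposite strand (Dock2, Zyx and Hk3), and without a stated strand setting the reads of both strands cannot be told apart. Astl overlaps none, but it starts at chr2:127338639, just past the end of Dusp2 (chr2:127336159-127338376) on the same strand. Dusp2 was more abundant (524 CPM on average in BM day 1) and fell too. Whether its reads entered the counts of Astl was not tested. Among the 36 protein-coding genes with 0 counts in all day 3 libraries and some in all day 1 libraries, 36.1% overlap a more abundant tested gene, against 1446 of 13129 among all protein-coding tested genes. Over all classes of gene 173 had this pattern, and 6 had 0 counts in all day 1 libraries and some in all day 3 libraries. Prefix and day cannot be told apart for these genes either.

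The 6 largest rises under the same conditions were Lox, Il1r1, Bgn, Slc36a2, Emc9 and Zfp825. Lox, which crosslinks collagen, was at 945, 11.3, 18.1 and 15.9 CPM in BM day 3 libraries, against 0, 4.25, 0, 1.24 and 0 CPM in BM day 1 libraries. Without BM_day3.1, by far the highest, it was no longer called (3.64, adjusted p = 0.0693), nor was the matrix proteoglycan Bgn (2.90, adjusted p = 0.126), which had 800.4 CPM in that library. Slc36a2, an amino acid carrier, changed by 6.13 ± 1.76 (adjusted p = 0.015), Emc9 by 5.42 ± 1.42 (adjusted p = 0.0082) and the zinc finger gene Zfp825 by 5.197 ± 1.24 (adjusted p = 0.0041), all against levels near 0 at day 1. The 9 libraries alone called none of the 3 (adjusted p = 0.107 to 0.161).

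Markers of other cell types were summed in each library beside these results, and their part in them was not tested. Fibroblast and endothelium markers summed to 29404, 244, 405 and 105 CPM in BM day 3 and 356, 250.3, 329, 449 and 439.9 CPM in BM day 1. BM_day3.1 stood out, with Col1a1 at 15944 CPM against 5.49 to 159.5 CPM in the rest of BM day 3 (7.04 ± 2.15, adjusted p = 0.024, 1.12 with an adjusted p of 0.668 without BM_day3.1). Neutrophil markers summed to 5871, 1088, 652 and 1484 CPM in BM day 3 and 1196, 1279.8, 1969.9, 1494 and 696 CPM in BM day 1. In that list 1 of 14 tested markers rose (Lcn2) and 1 fell (Ltf), and S100a9 did not pass (−0.01 ± 1.04, adjusted p = 1). Lung epithelium markers together held 73.2 to 198 CPM in BM day 3, against 23.95 to 100.5 CPM in BM day 1, with none of 13 called by edgeR (Hopx at 1.54 ± 0.88, adjusted p = 0.21). B and plasma cell markers together held 65.7 to 244 CPM in BM day 3, against 16.5 to 71.3 CPM in BM day 1. Dendritic cell markers together held 45.6 to 141 CPM in BM day 3, against 129 to 232 CPM in BM day 1, with none of 9 called by edgeR in either list (Ighm at 1.704 ± 0.82, adjusted p = 0.13, Ccr7 at −1.95 ± 0.81, adjusted p = 0.073). At an unadjusted p under 0.05, 1 epithelial, 1 B and plasma cell and 0 dendritic cell markers were higher and 0, 1 and 1 lower, and DESeq2 called 1 epithelial marker higher, 1 dendritic cell marker lower and no B or plasma cell marker. T and NK cell markers together held 0 to 34.6 CPM in BM day 3, against 0.307 to 20.8 CPM in BM day 1. Of the 13, 8 had 0 counts in BM day 3, among them Cd3d, Gzma, Gzmb and Lck, which were called lower, and Nkg7 was at 2.23 ± 1.92 (adjusted p = 0.44). Without BM_day1.5, the single day 1 library with counts of it, Nkg7 was called higher (adjusted p = 0.0263) against a group at 0. Gp1ba, of platelets, was called lower with 0 counts at day 3, against 5.799 CPM in BM_day1.4 and at most 0.350 CPM in each of the other day 1 libraries.

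Resident macrophages of the same days, whose libraries share 1 prefix, changed in fewer genes: 143 of 17143 were called in AM day 3 against AM day 1 (0.834%). Of these 107 rose (0.624%) and 36 fell (0.210%). A test of the difference between both changes called 1979 genes (11.5%), 604 with a higher change in BM (3.52%) and 1375 with a lower one (8.02%), around a median difference of −0.24. The BM and AM comparisons share no library, but the BM one holds the change of prefix and the AM one does not, so a difference between them cannot be told apart from it. In AM 5 of 20 early inflammatory regulators fell and none rose (median −0.62), and for 7 the change was lower in BM. Kdm6b fell in AM as well, to 135 ± 49.7 CPM in AM day 3, against 235 ± 23.7 CPM in AM day 1 (SD, n = 3 and 4). This change of −0.83 ± 0.20 (adjusted p = 0.04) differed from the BM change by −2.37 ± 0.26 (adjusted p = 1e-05). The AM call ended without any 1 of the 7 AM libraries except AM_day3.2 (adjusted p = 0.0505 to 0.285). The AM day 1 level was below that of every BM day 1 library. Nlrp3 did not pass in AM (−0.86 ± 0.27, adjusted p = 0.16), and its changes differed by −2.09 ± 0.35 (adjusted p = 0.0004). Il1b fell in AM (−1.62 ± 0.26, adjusted p = 0.0015), with a difference of −1.02 ± 0.33 (adjusted p = 0.043) that ended in 12 alternatives (adjusted p up to 0.124).

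For several genes that rose or fell in BM the difference between the BM and AM changes did not pass the test. Apoe was at 2794 ± 2735 CPM in AM day 3 and 443 ± 191 CPM in AM day 1, a change of 2.66 ± 0.53 (adjusted p = 0.014). Its AM day 3 libraries were at 1509.8, 5934 and 938 CPM, so AM_day3.2 stood apart, and without it the AM change was no longer called (1.46 ± 0.45, adjusted p = 0.337), nor was it without AM_day1.1, AM_day1.2 or AM_day1.4 (adjusted p = 0.05004 to 0.0588). The difference from BM did not pass, at 1.41 ± 0.69 (adjusted p = 0.22), but it was called without AM_day3.2 (2.63, adjusted p = 0.0159). C1qa changed by 2.31 ± 0.45 (adjusted p = 0.011) in AM, Saa3 by 3.51 ± 0.80 (adjusted p = 0.04) and Ly6c2 by 3.22 ± 0.53 (adjusted p = 0.0026). The BM changes differed from these by −0.20 ± 0.59 (adjusted p = 0.99) for C1qa, −0.05 ± 1.02 (adjusted p = 1) for Saa3 and −1.26 ± 0.68 (adjusted p = 0.27) for Ly6c2. AM_day3.2 was the highest AM day 3 library for these genes too, with AM_day3.1, AM_day3.2 and AM_day3.3 at 102, 364 and 109 CPM for C1qa, 1566, 5973 and 2487 CPM for Saa3 and 335, 1169 and 426 CPM for Ly6c2. Without it the AM changes were 1.45 ± 0.41, adjusted p = 0.235 for C1qa, 2.79 ± 0.83, adjusted p = 0.314 for Saa3 and 2.46 ± 0.51, adjusted p = 0.0461 for Ly6c2. The call for Saa3 ended without any 1 of the 7 AM libraries (adjusted p = 0.0583 to 0.314), and that for C1qa also without AM_day1.1 (0.0549). A p that misses the threshold does not show that the changes were alike. Tnf did not pass in AM (−1.58 ± 0.39, adjusted p = 0.057), nor did its difference (−0.08 ± 0.50, adjusted p = 1).

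Of 38 lysosomal hydrolases 5 rose in AM. The change was higher in BM for 10, lower for 1 and not called in the difference for 27. No membrane or pump gene was called in AM by edgeR (0 higher and 1 lower at an unadjusted p under 0.05, 0 and 1 by DESeq2) and 10 of 28 had a higher change in BM, with 18 not called in the difference. Ctsd had 3955 ± 300.3 CPM in AM day 3 and 2174 ± 193 CPM in AM day 1, which did not pass (0.83 ± 0.23, adjusted p = 0.11), and the difference was 1.61 ± 0.32 (adjusted p = 0.0019). Both AM means exceeded the highest BM day 1 library. For ribosomal proteins edgeR called no gene in AM (median −0.23; 0 higher and 2 lower at an unadjusted p under 0.05, none by DESeq2), and 34 of 38 had a higher change in BM. For histone and DNA modifying enzymes edgeR called none in AM (median 0.16; 4 higher and 1 lower at an unadjusted p under 0.05, none by DESeq2), and 11 of 43 had a lower change in BM. Of the cell cycle genes 1 rose in AM (median 2.01; 11 higher at an unadjusted p under 0.05, 7 by DESeq2, none lower by either). Of 32 members 3 had a lower change in BM, near the 8.02% of all tested genes. Mki67 was among them (a difference of −1.33 ± 0.38, adjusted p = 0.025), a call that ended in 5 alternatives (adjusted p up to 0.181).

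**Figure D5:**
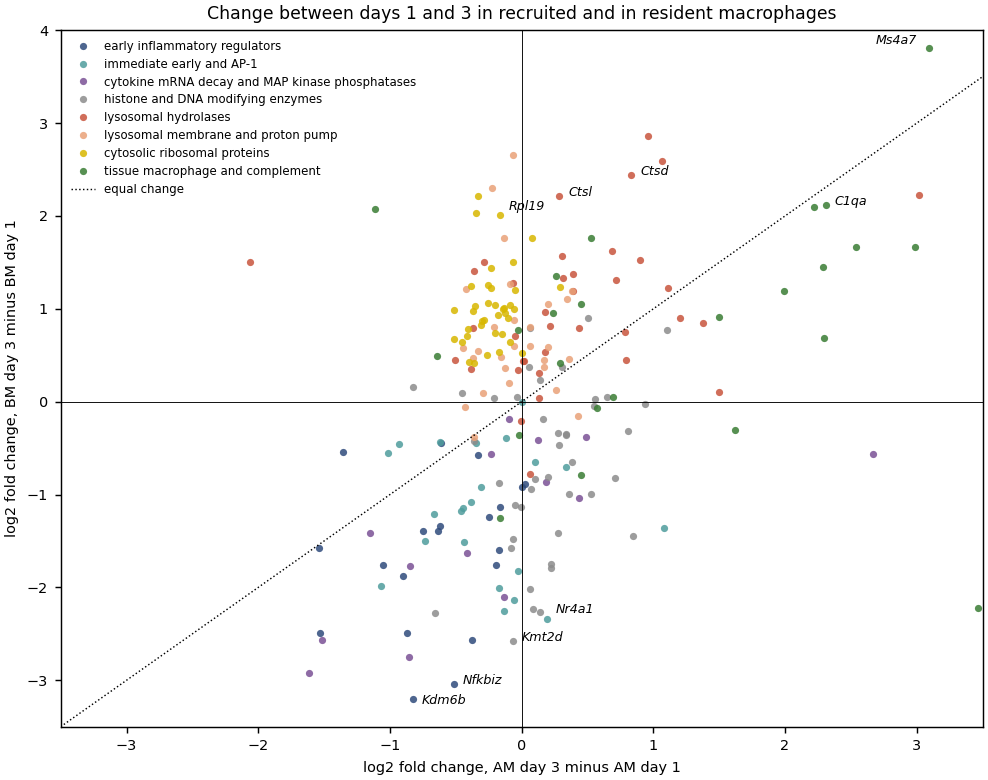
Log2 fold change, day 3 minus day 1, in BM (vertical axis) against AM (horizontal axis) for members of 8 gene lists, 1 point per gene, with a dotted line of equal change; 5 of 230 genes lie outside the axes or had 0 counts in a BM group. Kdm6b (−3.198 in BM, −0.83 in AM) lies below the line, Ctsd (2.44 in BM, 0.83 in AM) above it and C1qa (2.12 in BM, 2.31 in AM) close to it.

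At day 7, in BM libraries that carry the same prefix as BM day 3, Kdm6b stood at 399, 388 and 247 CPM in BM_day7.1, BM_day7.2 and BM_day7.3, and Nlrp3 at 462, 462 and 372 CPM. Both lay above every BM day 3 library and below every BM day 1 library. Ctsd was at 3477, 3302 and 9041 CPM, each above the highest BM day 3 library, with BM_day7.3 far above the other 2. Apoe was at 8549, 8877 and 25434 CPM, and the BM_day7.1 and BM_day7.2 levels lay within the BM day 3 range. Summed CPM of the early inflammatory regulators were 12159.9 to 17199.6 at day 1, 3544 to 5025 at day 3 and 4932 to 6401 at day 7, and those of the lysosomal hydrolases 19392 to 24562, 33825 to 55520.0 and 57131 to 93739 at the same days. Days 3 and 7 overlapped for the regulators, and the 3 days did not overlap for the hydrolases. Ribosomal protein transcripts summed to 10219 to 16425, 24090.3 to 27956 and 21583 to 28629 CPM at days 1, 3 and 7.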

How the data were processed

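Stranded poly(A)-selected RNA libraries were counted by the authors, and the deposited values are raw counts per gene for 55487 Ensembl genes in 26 libraries. The build GRCm38 is listed in the submitters' processing notes, which also hold HISAT2 2.1.0 and featureCounts 2.0.0 beside Trimmomatic 0.39 and FastQC 0.11.9; the strand setting and annotation release are not given in the sources used here. GENCODE M21 symbols were found for 55227 genes, and gene positions are from it.

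Differences were tested with edgeR 4.0.16 (robust quasi-likelihood test, limma 3.58.1, R 4.3.3) in 1 fit to all 26 libraries with TMM scaling, after filterByExpr with a minimum count of 10, which left 17143 genes with 99.9% of the counts. P-values were Benjamini-Hochberg adjusted over these genes within each of 3 contrasts, and an adjusted p under 0.05 was a call. The standard error is the absolute log2 fold change divided by the square root of F. With 11382242 counts in the shallowest BM library, 1 count is a fraction of 1 CPM, and a group at 0 was given a floor of 3 counts over the group (0.0417 CPM in BM day 3, 0.0389 CPM in BM day 1). Such floors cover counting error only.

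The members and gene lists were chosen with earlier results of these data known. Named genes were a fixed set of 10, up to 3 called members per list ranked by absolute change (their higher group averaging 5 CPM or more, the BM groups not overlapping), the most abundant member of each list, and the 6 largest rises and falls over all genes; other list members are quoted to describe their lists, chosen after their values were seen. Alternatives were DESeq2 1.42.0 and its size factors, library-size scaling, other filters, the 9 or 16 compared libraries alone, a replicate block, a Y-linked covariate, sets of libraries left out, and, added after seeing the data, protein-coding genes with and without an exon-length offset. Tables and plots used Python 3.11.15, pandas 2.3.3 and matplotlib 3.10.9. Promoters are RefSeq sequences of GRCm38.p6. Some genes that entered the fits and list counts are not reported here by name.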

Additional observations from a re-analysis of the deposited data

Results flagged for a closer look

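In 21 of 202 groups of 4 or 5 libraries, 1 library stood apart from the rest by Dixon's criterion, which chance flags in about 1 in 20 groups. In BM_day1.1 this held for Slc36a2 (0.865 CPM, the rest 0) and Emc9 (2.19 CPM, the rest 0). In BM_day1.2 this held for Il1r1 (1.45 CPM, the rest 0). In BM_day1.3 this held for Dusp1 (2068 CPM, the rest 1612 to 1652 CPM), Ctsl (59.7 CPM, the rest 103 to 118 CPM), C1qc (74.7 CPM, the rest 189 to 245 CPM), Thbs1 (5101 CPM, the rest 3671 to 3997 CPM), Irf7 (547 CPM, the rest 726 to 780.2 CPM), Pdk1 (0 CPM, the rest 22.1 to 33.5 CPM), Pgam1 (55.9 CPM, the rest 127 to 176 CPM), Rps13 (0.154 CPM, the rest 66.04 to 126 CPM) and Unc5a (44.3 CPM, the rest 7.46 to 10.1 CPM). In BM_day1.4 this held for Ighm (7.46 CPM, the rest 33.2 to 42.98 CPM) and Gp1ba (5.799 CPM, the rest 0 to 0.3499 CPM). In BM_day1.5 this held for Nkg7 (2.33 CPM, the rest 0). In BM_day3.1 this held for Mki67 (70.02 CPM, the rest 117 to 128 CPM), Setd1b (0.0879 CPM, the rest 26.4 to 35.8 CPM), Thbs1 (1126 CPM, the rest 94.2 to 137 CPM), Hsph1 (0.264 CPM, the rest 69.9 to 113 CPM), Lox (945 CPM, the rest 11.3 to 18.1 CPM) and Bgn (800.4 CPM, the rest 15.6 to 27.96 CPM). BM_day1.3 and BM_day3.1 hold 15 of these 21 values.

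The change from day 1 to day 3 differed between BM and AM for these genes by edgeR's test of the difference, given as the BM change minus the AM change on the log2 scale with its standard error and adjusted p. It was lower in BM for Areg (−3.78 ± 1.24, 0.049), Nr4a1 (−2.53 ± 0.29, 2.3e-05), Nfkbiz (−2.52 ± 0.37, 9.8e-05), Kmt2d (−2.51 ± 0.38, 0.00011), Kdm6b (−2.37 ± 0.26, 1e-05), Rel (−2.18 ± 0.41, 0.0012), Nr1h3 (−2.17 ± 0.47, 0.0041), Nr4a3 (−2.12 ± 0.58, 0.02), Nlrp3 (−2.09 ± 0.35, 0.0004) and Fosl2 (−2.08 ± 0.32, 0.00012). Smaller differences in the same direction were those of Dusp5 (−1.96 ± 0.38, 0.0016), Dusp16 (−1.899 ± 0.23, 2.5e-05), Tet2 (−1.61 ± 0.35, 0.004), Lrp1 (−1.51 ± 0.37, 0.0096), Cd80 (−1.44 ± 0.41, 0.023), Cebpb (−1.42 ± 0.20, 5.5e-05), Kdm5c (−1.41 ± 0.33, 0.0079), Mki67 (−1.33 ± 0.38, 0.025), Dusp1 (−1.21 ± 0.25, 0.0032) and Il1b (−1.02 ± 0.33, 0.043). It was higher in BM for Il1r1 (7.98 ± 1.72, 0.004), Cstb (2.81 ± 0.37, 3e-05), Gpnmb (2.74 ± 0.53, 0.0021), Cd63 (2.73 ± 0.43, 0.00019), Atp6v0d2 (2.53 ± 0.46, 0.001), Fth1 (2.41 ± 0.31, 2.8e-05), Rpl27 (2.38 ± 0.33, 5.7e-05), Cox5b (2.301 ± 0.45, 0.0017), Rpl19 (2.17 ± 0.26, 2.3e-05), Lpl (2.17 ± 0.39, 0.001), Ctsl (1.93 ± 0.37, 0.0014) and Atp5c1 (1.92 ± 0.51, 0.017). Smaller differences in that direction were those of Cd68 (1.896 ± 0.38, 0.002), Gclm (1.79 ± 0.47, 0.016), Chil3 (1.698 ± 0.52, 0.038), Bag3 (1.63 ± 0.44, 0.018), Ctsd (1.61 ± 0.32, 0.0019), Prdx1 (1.45 ± 0.22, 0.00012), Rplp1 (1.38 ± 0.25, 0.001), Anxa1 (1.06 ± 0.29, 0.019), Aldoa (0.89 ± 0.22, 0.013), Lamp1 (0.85 ± 0.23, 0.017), Hsp90ab1 (0.71 ± 0.23, 0.045) and Atp5a1 (0.53 ± 0.17, 0.045). BM day 1 alone among these 4 groups carries the other library prefix, so the prefix and the difference cannot be told apart.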

How the results depend on the processing

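Counts of called genes depended on the libraries and genes fitted. For BM day 3 against BM day 1 (4432 calls) the count was 2773 with a filter of 5 CPM in 3 libraries, 1117 in the 9 libraries alone, 2887 with BM_day3.1 and BM_day3.2 as the only day 3 libraries, 2691 with BM_day3.3 and BM_day3.4, 2827 over protein-coding genes and 2324 with the length offset; without single libraries it ranged from 3429 to 4628. The share of calls that were higher was 41.0% in the fit reported, 30.1% in the 9 libraries alone, 52.7% and 52.8% with the pairs of day 3 libraries and 52.0% with the length offset. For AM (143 calls) it was 59 in the 16 libraries alone, 470 without BM_day1.3 and BM_day3.1, 844 by DESeq2 and 31 to 138 without single libraries (61 without AM_day1.1, 81 without AM_day1.2, and 76, 31 and 89 without AM_day3.1, AM_day3.2 and AM_day3.3). For the difference of changes (1979 calls) it was 498 in the 16 libraries alone, 1260 over protein-coding genes, 916 with the length offset and 1180 to 2292 without single libraries (1308, 1180 and 1306 without AM_day3.1, AM_day3.2 and AM_day3.3). The cause of these shifts was not tested. Of 88 named genes called in BM, 63 stayed called under every alternative, and of 50 called in the difference 31 did. Besides the cases given above, BM calls ended under 1 or more alternatives, with the highest adjusted p in parentheses, for Areg (0.169), Il1r1 (0.0682), Ddx58 (0.207), Irf7 (0.0791), Gp1ba (0.134), Hspa5 (0.0562), Hsph1 (0.194), Ms4a7 (0.0762), Rps13 (0.184), Setd1b (0.1296) and Thbs1 (0.0869). Differences between BM and AM stopped being calls, with the number of alternatives and the highest adjusted p, for Atp5a1 (19, 0.462), Hsp90ab1 (18, 0.2900), Chil3 (16, 0.174), Areg (14, 0.202), Anxa1 (4, 0.153), Lamp1 (3, 0.135), Cd80 (3, 0.0833), Bag3 (3, 0.0708), Aldoa (2, 0.129), Nr4a3 (2, 0.0738), Lrp1 (1, 0.302), Tet2 (1, 0.165), Atp5c1 (1, 0.112), Gclm (1, 0.102), Epha1 (1, 0.0661), Unc5a (1, 0.0587) and Rplp1 (1, 0.0522). In the other direction, BM changes became calls, with the lowest adjusted p, for Ccr7 (0.0172), Hopx (0.0112) and Mvd (0.0495), and differences did so, among others, for Emc9 (0.00243), Gapdh (0.0172), Gp1ba (0.0375), Lif (0.0414), Lyz2 (0.0361), Plac8 (0.0256), Rps13 (0.0000269), Setd1b (0.000109), Srebf2 (0.0391), Trem2 (0.0255) and Zfp825 (0.00353). None of the named genes that were called changed sign.

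Replicate numbers did not pair the libraries: correlations of deviations between BM libraries of the same number lay between −0.02 and 0.03, and 1 of 4 day 3 libraries correlated best with its own number. With the replicate block the counts were 2500 in BM, 103 in AM and 1086 in the difference. Depth limits genes of few counts, for which a missing call does not show that a difference was absent.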
